A study of Homo sapiens with 48 samples.

Results

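The apoptosis regulators described here are 40 genes: the inhibitor of apoptosis (IAP) family, the BCL2 family, caspases, death receptor and necroptosis genes, and the proteins released from mitochondria. They were taken by gene symbol from a table of 20241 genes measured by RNAseq in PSN1 cells, a human pancreatic ductal adenocarcinoma (PDAC) line. Of the 48 samples of the series, 9 libraries were used, 3 from each of 3 groups of PSN1 cells. Parental cells are untreated wild type cells. TalaR-M cells had acquired resistance to Talazoparib, an inhibitor of the DNA repair enzyme PARP1 that also traps it on DNA, and are labelled 50 nM Talazoparib for 4 months. TalaR-DF cells come from the same selected population after some weeks in medium without drug, by which time the study describes their resistance as largely lost, so they are not a resistant group here. All groups share the line and the base medium. The sources describe 1 resistant PSN1 population and triplicate RNA harvests and give no independent selections, so p-values measure the spread between these samples, which may be technical. In bulk RNA, fewer cells expressing a gene and less RNA per cell cannot be told apart.

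Apoptosis has 2 main routes. In the death receptor route, ligands such as TRAIL (TNFSF10) bind receptors that recruit FADD and activate caspase-8, which CFLAR restrains. In the mitochondrial route, BH3-only proteins neutralise pro-survival BCL2 proteins, pore-forming members open the outer mitochondrial membrane, cytochrome c (CYCS) joins APAF1 to activate caspase-9, and IAPs hold caspases in check until DIABLO and HTRA2 displace them. PDAC cells are known for a high resistance to cell death, and DNA damage of the kind PARP inhibitors leave feeds mainly into the mitochondrial route.

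Promoter sequences are shown for BIRC7, the member with the largest fold change, and for BIRC3 and TNFSF10, which were higher in TalaR-M cells and are known targets of NF-kB and interferon signalling respectively. These 3 were picked with their values known. The letters come from RefSeq (GRCh38.p14) and run from 250 bases before to 50 bases after the gene start. Capitals mark matches on either strand to an NF-kB motif (GGGNNNNNCC), an interferon response element core (GAAANNGAAA) or a TATA box (TATAAA). In the TNFSF10 window, chr3:172523381-172523680 on the minus strand, the capitals are in order a reverse strand interferon element core, an NF-kB match and a TATA box. In BIRC3, chr11:102317234-102317533 on the plus strand, both are reverse strand NF-kB matches. In BIRC7, chr20:63235655-63235954 on the plus strand, a pair of NF-kB matches on opposite strands overlap just after the start.
TNFSF10: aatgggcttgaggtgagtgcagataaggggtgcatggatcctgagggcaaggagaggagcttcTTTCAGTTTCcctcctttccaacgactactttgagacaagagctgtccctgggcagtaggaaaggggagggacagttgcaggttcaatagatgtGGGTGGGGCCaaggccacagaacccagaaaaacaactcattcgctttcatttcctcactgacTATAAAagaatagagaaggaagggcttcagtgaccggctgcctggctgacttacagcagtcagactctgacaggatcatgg
BIRC3: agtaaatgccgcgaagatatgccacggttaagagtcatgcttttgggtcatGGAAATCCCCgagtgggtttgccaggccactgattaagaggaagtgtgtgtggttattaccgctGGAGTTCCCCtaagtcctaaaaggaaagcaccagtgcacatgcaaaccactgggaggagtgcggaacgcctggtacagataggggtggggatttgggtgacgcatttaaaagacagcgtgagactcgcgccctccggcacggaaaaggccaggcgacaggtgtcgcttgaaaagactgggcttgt
BIRC7: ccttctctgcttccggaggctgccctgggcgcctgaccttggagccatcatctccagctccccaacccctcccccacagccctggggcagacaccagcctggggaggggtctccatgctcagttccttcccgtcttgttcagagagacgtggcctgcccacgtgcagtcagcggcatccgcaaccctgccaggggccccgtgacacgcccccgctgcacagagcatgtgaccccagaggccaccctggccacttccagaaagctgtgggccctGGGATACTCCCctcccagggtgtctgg
The NF-kB motif is short and occurred in 58.7% of all 35116 RefSeq promoters and in 27 of the 31 members with an entry. The interferon element core occurred in 3.57% of promoters and in 4 of the 31 members, and the TATA box in 11.5% and in 5. The shares of all promoters count each entry, while a member counts if any of its entries matched, so these values were not compared. A match is a description of the letters and not of binding.

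The deposited values are log2 CPM, the log2 of the read count of a gene after scaling to library size, with values under 0 set to 0, so that 0 means at most 1 CPM. Reads on genes above this floor ranged from 12213605 to 14973847 in 8 libraries and came to 8387755 in TalaR-M replicate 2. That library stood apart: it correlated with the other TalaR-M libraries at r = 0.78 across genes, against 0.99 between those, and 5431 of 12471 genes tested were at least 2-fold from the mean of the other TalaR-M libraries. Every fold change below was therefore also computed without it. PSN1 had epithelial keratins and EPCAM in all libraries, while CDH1 was at 0 in all 9. Markers of other cell types were mostly low, with CD3E, LYZ, CD68, TYROBP, VWF, FAP and THY1 at 0 throughout. Of the immune markers, CD14 had a mean of 3.72 log2 CPM in parental, 1.77 in TalaR-M and 0.48 in TalaR-DF cells. PTPRC was at 0 in parental cells, with a mean of 0.87 in TalaR-M and 0.02 in TalaR-DF cells. COL1A1, COL1A2, LUM, PDGFRA and PDGFRB were expressed. The summed CPM of the 8 fibroblast markers ranged from 495 to 510 in parental, from 303 to 455 in TalaR-M and from 101 to 110 in TalaR-DF libraries. The sum hides opposite changes. In TalaR-M against parental cells, 2 of the 6 tested were higher and 4 lower at adjusted p under 0.05 and 2-fold (limma). Of all genes, 5.53% were higher and 7.72% lower by that rule. DCN, 1 of the 2 higher, was at 0 in all parental and TalaR-DF libraries. It entered the test through TalaR-M cells alone, so it could only be called higher. Mean COL1A1 went from 90.6 CPM in parental to 359 in TalaR-M cells, and mean COL1A2 from 233 to 0. Whether the fibroblast markers bear on the members was not tested. The 4 endothelial markers, of which 3 were above 0 in any library, summed to 28.8 to 30.9 CPM in parental libraries and to at most 9.06 CPM in TalaR ones.

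Among the 40 members, 36 were above 0 in at least 3 libraries and were tested, and 33 were above 0 in all 9. BCL2A1, HRK and RIPK3 were at 0 in every library, and BIK, a BH3-only gene, reached 0.01 log2 CPM in TalaR-M replicate 2 alone. The members were steady within groups outside that library. The median SD over the tested members was 0.06 log2 units in parental, 0.11 in TalaR-DF and 0.53 in TalaR-M cells, where it fell to 0.09 without replicate 2. In TalaR-M replicate 2, 15 of the 37 members seen in TalaR-M cells were at least 2-fold from the mean of replicates 1 and 3, with 4 higher and 11 lower, and in every other library this count was 0. APAF1, the scaffold of the apoptosome with a canonical transcript of 7201 bases, was 0.01 log2 CPM in that library against 4.28 and 4.00. BIRC6, with 15687 bases, was 4.76 against 7.32 and 7.43. BAD, a BH3-only gene with 929 bases and 65.8% GC, was 5.04 against 2.86 and 2.92. The longest transcripts thus tended to be low and short GC-rich ones high in this library, and the cause was not tested.

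**Figure D1:**
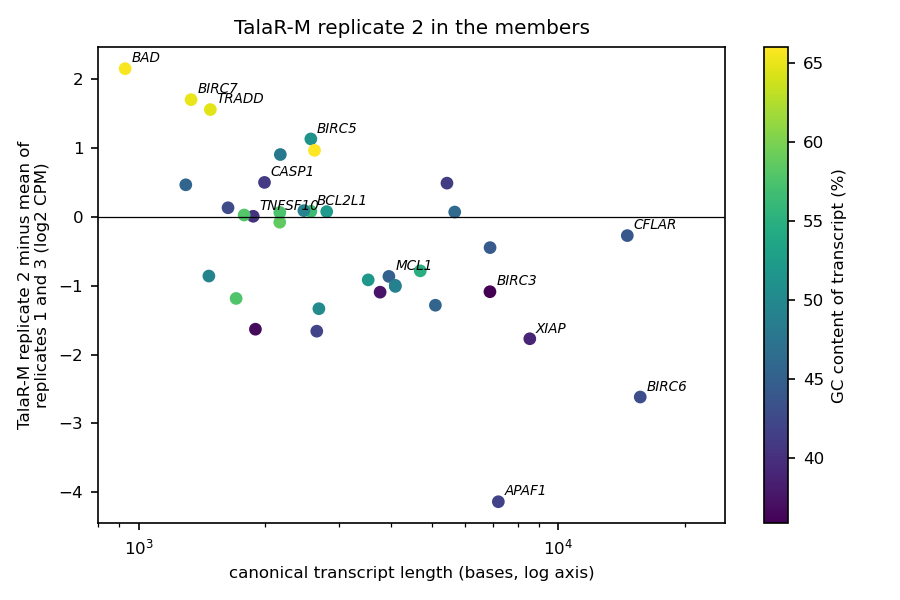
Each point is 1 of the 36 tested members, with the length of its canonical transcript on a log axis and the difference between TalaR-M replicate 2 and the mean of replicates 1 and 3 (log2 CPM) on the vertical axis, coloured by GC content. APAF1 lies at -4.14 and BAD at 2.15, while TNFSF10 at 0.01 and BCL2L1 at 0.08 lie near 0.

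A gene was called changed at an adjusted p under 0.05 and at least 2-fold (limma, Benjamini-Hochberg over 12471 genes). In TalaR-M against parental cells, 2 members rose (TNFSF10 and BIRC5) and 2 fell (BIRC7 and MCL1), where 5.53% of all genes were called higher and 7.72% lower. Without TalaR-M replicate 2, the 2 that rose were TNFSF10 and BIRC3 and the 2 that fell were again BIRC7 and MCL1, where 6.78% of all genes were called higher and 7.07% lower. In TalaR-DF against parental cells, 0 members rose and 2 fell, BIRC7 and CASP1, where 2.25% and 7.49% of all genes were called higher and lower by limma. At an unadjusted p under 0.05, 3 members were higher and 9 lower in that comparison, beside 12.7% and 16.7% of all genes. In TalaR-M against TalaR-DF cells, 3 members were higher in TalaR-M (CASP1, BIRC3 and BCL2L1) and 1 was lower (BIRC7), against 5.29% and 1.64% of all genes. Without replicate 2 the same 4 members were called, against 6.96% and 1.4% of all genes. Passing adjusted p under 0.05 with no fold threshold was common in the fits without that library. There 60.2%, 62.9% and 48.8% of all genes passed in either direction in the comparisons in turn, and 21, 20 and 18 of the 36 members. The counts are near what these shares give for 36 genes, so apoptosis regulators as a group were not set apart, and the results concern single genes. The median log2 fold change of the members was 0.06, -0.09 and 0.14 in these comparisons in turn, beside -0.09, 0.01 and -0.09 for all genes. These comparisons share libraries, so their values are set side by side and not as independent evidence.

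**Figure D2:**
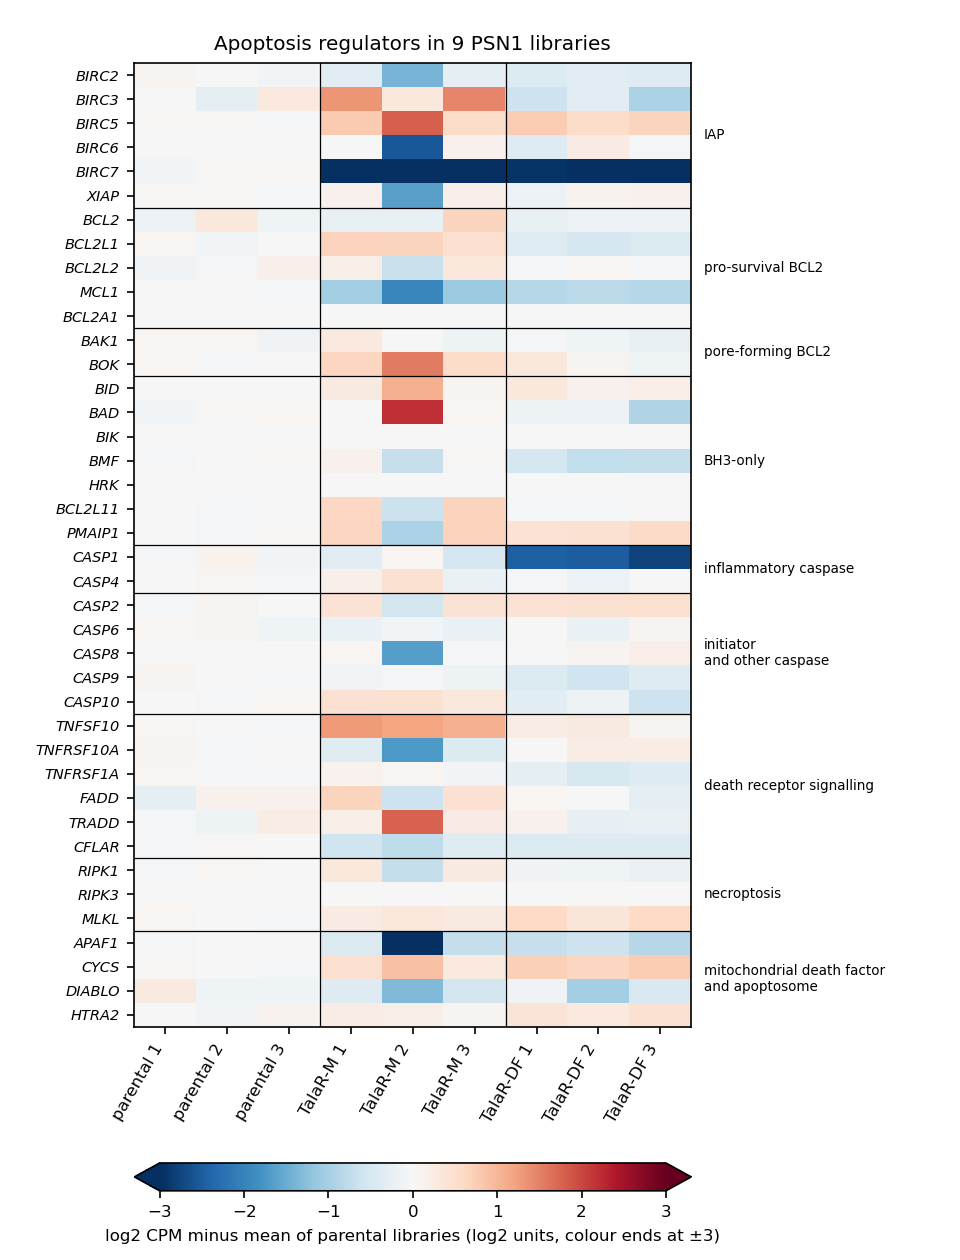
Rows are the 40 members grouped by role and columns the 9 libraries, and colour gives the log2 CPM minus the mean of the parental libraries. BIRC7 is low in all 6 TalaR libraries, CASP1 is low in the 3 TalaR-DF libraries, and TalaR-M replicate 2 departs from its group in many rows.

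BIRC7 (livin, also called ML-IAP), an IAP known for high expression in melanoma and some carcinomas, showed the largest change of any member. The gene lies at chr20:63235883-63240495 (GENCODE 44, GRCh38). Its log2 CPM was 7.33, 7.45 and 7.46 in parental cells, 0.00, 1.70 and 0.00 in TalaR-M cells, and 4.46, 4.32 and 3.85 in TalaR-DF cells. The groups did not overlap, with TalaR-DF in between. In reads, parental libraries held 2318 to 2433, TalaR-DF libraries 182 to 320, and TalaR-M replicates 2 and 3 held 24 and 13, while TalaR-M replicate 1 was at the floor. A low level of BIRC7 was thus still detected in at least 2 TalaR-M libraries. For replicate 2, the fitted trend with transcript length and GC content was 1.61 log2 units upward at BIRC7, so its 24 reads are uncertain. The log2 fold change was -6.84 ± 0.44 (SE) in TalaR-M against parental cells (limma, adjusted p = 1.4e-05) and -7.41 without replicate 2. Both are limited by the 1 CPM floor. In TalaR-DF against parental cells it was -3.20 ± 0.44 (adjusted p = 0.0014), a 9.19-fold fall. TalaR-DF cells nonetheless held more than TalaR-M cells, with a log2 fold change of -3.64 ± 0.44 for TalaR-M against TalaR-DF (adjusted p = 0.0013) and -4.21 without replicate 2. The window printed above holds the start of BIRC7, and its activity was not measured.

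BIRC3 (cIAP2), a ubiquitin ligase that acts in TNF receptor signalling and is itself a classic NF-kB target, was higher in TalaR-M than in TalaR-DF cells. The gene lies at chr11:102317484-102339403. Its log2 CPM was 1.77, 1.45 and 2.03 in parental cells, 3.08, 2.07 and 3.22 in TalaR-M cells, and 1.14, 1.43 and 0.79 in TalaR-DF cells. The TalaR-M libraries were above every other library, and the lowest of them was replicate 2. These are low counts, from 21 to 132 reads a library. The log2 fold change was 1.67 ± 0.33 for TalaR-M against TalaR-DF (adjusted p = 0.014) and 2.03 without TalaR-M replicate 2. The call was lost without TalaR-DF replicate 1 (adjusted p = 0.056) or replicate 3 (adjusted p = 0.068). Against parental cells TalaR-M gave 1.04 ± 0.33 (adjusted p = 0.053), and 1.40 ± 0.21 without replicate 2 (adjusted p = 0.00012). TalaR-DF and parental cells differed by -0.63 ± 0.33 (adjusted p = 0.26).

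BIRC5 (survivin) inhibits apoptosis and is also a subunit of the chromosomal passenger complex, so that it is expressed mainly in dividing cells. The gene lies at chr17:78214186-78225636. Its log2 CPM was 6.59, 6.59 and 6.51 in parental cells, 7.34, 8.36 and 7.10 in TalaR-M cells, and 7.33, 7.10 and 7.23 in TalaR-DF cells. Both TalaR groups lay above the parental libraries, and the highest value was TalaR-M replicate 2. TalaR-M against parental gave 1.04 ± 0.29 (adjusted p = 0.035). Without replicate 2 this was 0.66 ± 0.08 (adjusted p = 3.6e-05), a 1.58-fold difference and so no longer a 2-fold call. The call was also lost when any parental library (adjusted p from 0.099 to 0.11) or any TalaR-DF library (adjusted p from 0.060 to 0.062) was left out. TalaR-DF against parental gave 0.66 ± 0.29 (adjusted p = 0.18), and the same difference with a SE of 0.08 without TalaR-M replicate 2 (adjusted p = 1.4e-05). The 12 mitotic genes beside it had a summed CPM of 1729 to 1823 in parental, 2065 to 3125 in TalaR-M and 2747 to 2842 in TalaR-DF libraries, and 4 of the 12 passed adjusted p higher in each TalaR group against parental. Of all genes, 23.6% and 18.6% passed in these comparisons in either direction. Without TalaR-M replicate 2, 11 passed in TalaR-M and 12 in TalaR-DF cells, where 60.2% and 62.9% of all genes passed in either direction. The number called higher in TalaR-M against parental cells went from 1 to 3, beside 5.53% and 6.78% of all genes. Among the 12 genes AURKB, the kinase of the same complex, gave 1.01 in TalaR-M cells but 0.64 without replicate 2. MKI67 gave 1.10 in TalaR-DF cells. Whether cell division accounts for BIRC5 was not tested.

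The other 3 tested IAPs did not pass in any comparison with all 9 libraries. BIRC2 (cIAP1), which lies 7808 bases from BIRC3 and works with it, was 5.93 to 6.09 log2 CPM in parental, 4.63 to 5.75 in TalaR-M and 5.61 to 5.68 in TalaR-DF cells. XIAP, the most direct caspase inhibitor of the family, was 5.72 to 5.82 in parental cells and 5.60 to 5.94 elsewhere apart from 4.16 in TalaR-M replicate 2. The neighbours BIRC2 and BIRC3 thus had different values, with TalaR-M against parental at -0.66 ± 0.28 for BIRC2 (adjusted p = 0.12) and -0.30 without replicate 2 (adjusted p = 0.0031). The difference between the genes was not tested.

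**Figure D3:**
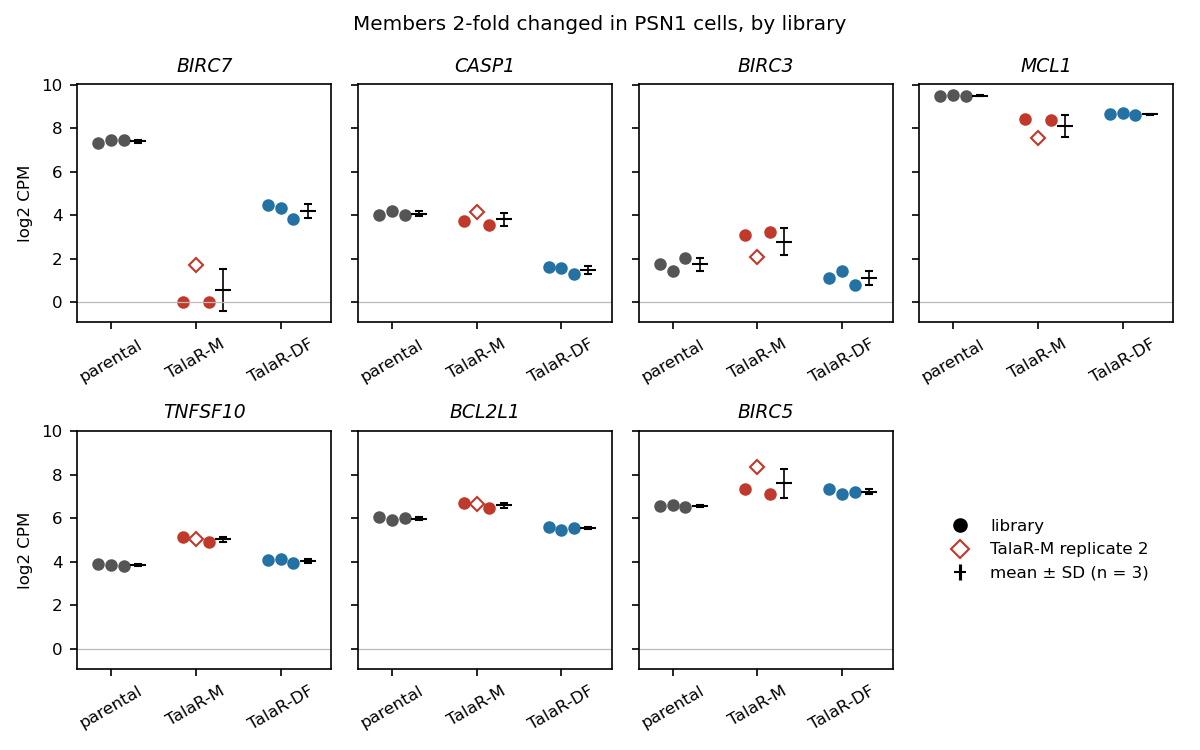
Each panel is a member called in at least 1 comparison, with log2 CPM on a shared vertical axis, points for single libraries, an open diamond for TalaR-M replicate 2 and bars for the mean ± SD (n = 3). BIRC7 steps from 7.33 or more in parental cells to 1.70 or less in TalaR-M cells with TalaR-DF between them, and CASP1 is low in TalaR-DF cells at 1.63 or less.

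Among pro-survival BCL2 genes, MCL1 was lower in both TalaR groups and BCL2L1 was higher in TalaR-M cells. MCL1, a short-lived protein that holds BH3-only proteins and BAK1, had log2 CPM of 9.50, 9.51 and 9.47 in parental cells, 8.44, 7.54 and 8.38 in TalaR-M cells, and 8.64, 8.68 and 8.63 in TalaR-DF cells. All 6 TalaR libraries were below all 3 parental libraries. MCL1 lies at chr1:150560895-150579738. The log2 fold change was -1.37 ± 0.23 in TalaR-M against parental cells (adjusted p = 0.0034), and -1.08 ± 0.06 without replicate 2 (adjusted p = 3.1e-08), a 2.12-fold fall. TalaR-DF against parental gave -0.84 ± 0.23 (adjusted p = 0.036), under 2-fold. TalaR-M and TalaR-DF differed by -0.53 ± 0.23 (adjusted p = 0.17), and by -0.24 without replicate 2 (adjusted p = 0.0058). MCL1 overlaps ADAMTSL4 on the opposite strand, and ADAMTSL4 gave -1.85 and -1.11 in TalaR-M and TalaR-DF against parental cells. The libraries are stranded, but the strand setting of the counting is not given in the sources used here, so reads of the overlap may be shared.

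BCL2L1, whose main product BCL-XL is the pro-survival protein most linked to epithelial tumours, lies at chr20:31664452-31723989. Its log2 CPM was 6.04, 5.91 and 6.001 in parental cells, 6.68, 6.65 and 6.46 in TalaR-M cells, and 5.61, 5.48 and 5.56 in TalaR-DF cells. The 3 groups did not overlap, with TalaR-M highest and TalaR-DF lowest, and replicate 2 lay within the TalaR-M values. The log2 fold change was 1.05 ± 0.12 for TalaR-M against TalaR-DF (adjusted p = 0.00097), a 2.07-fold difference, and 1.02 without replicate 2. Against parental cells TalaR-M gave 0.62 ± 0.12 (adjusted p = 0.0068) and TalaR-DF gave -0.43 ± 0.12 (adjusted p = 0.038), both under 2-fold. The gene level does not separate BCL-XL from the shorter pro-apoptotic splice form BCL-XS. BCL2 itself was near the floor, from 0 to 0.89 log2 CPM. BCL2L2 was 4.75 to 5.74 log2 CPM, did not pass with all 9 libraries, and shares sequence on its own strand with the read-through gene BCL2L2-PABPN1, so its counts are uncertain.

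No pore-forming or BH3-only gene among the 40 members was called in any comparison, with or without replicate 2. Of the 2 pore-forming genes, BOK rose by less than 2-fold in TalaR-M against parental cells, by 0.92 ± 0.27 (adjusted p = 0.039) and by 0.60 without replicate 2 (adjusted p = 0.00059). BAK1 was 4.01 to 4.52 log2 CPM over all 9 libraries and did not pass in any comparison. Of the 5 BH3-only genes tested, 0 passed in any comparison with all 9 libraries (limma), and at an unadjusted p under 0.05 there was 1, lower in TalaR-DF against parental. That gene, BMF, gave -0.67 ± 0.22 (adjusted p = 0.080), and -0.67 ± 0.11 without TalaR-M replicate 2 (adjusted p = 0.00019). BCL2L11 (BIM), which binds all pro-survival members, was 4.24 to 4.29 in parental, 4.89, 3.63 and 4.94 in TalaR-M and 4.22 to 4.26 in TalaR-DF cells. PMAIP1 (NOXA), a p53 target that acts on MCL1, was 3.58 to 3.64 in parental, 4.26, 2.66 and 4.32 in TalaR-M and 4.05 to 4.18 in TalaR-DF cells. For both, TalaR-M replicates 1 and 3 were above every parental library and replicate 2 below. Without replicate 2, TalaR-M against parental gave 0.64 for BCL2L11 (adjusted p = 4.4e-05) and 0.67 for PMAIP1 (adjusted p = 0.00011). BAD and BID, both high in replicate 2, gave 0.03 and 0.17 without it, with adjusted p of 0.91 and 0.072.

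CASP1, the inflammasome caspase that matures IL-1 beta and cleaves gasdermin D, fell in TalaR-DF cells. The gene lies at chr11:105025397-105035250. Its log2 CPM was 4.04, 4.19 and 4.01 in parental cells, 3.73, 4.15 and 3.56 in TalaR-M cells, and 1.63, 1.58 and 1.29 in TalaR-DF cells. Every TalaR-DF library was far below the other 6, while parental and TalaR-M values overlapped. TalaR-DF libraries held 30 to 44 reads and parental libraries 211 to 253. The log2 fold change was -2.58 ± 0.19 in TalaR-DF against parental cells (adjusted p = 4.3e-05), a 5.97-fold fall, and 2.31 ± 0.19 in TalaR-M against TalaR-DF (adjusted p = 0.00018). Without replicate 2 the second value was 2.15. TalaR-M against parental gave -0.26 ± 0.19 (adjusted p = 0.33), and -0.43 ± 0.14 without replicate 2 (adjusted p = 0.019). CARD16, a near copy of the first part of CASP1 that lies 6076 bases away, may share its reads.

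The other caspases among the 40 members were not called in any comparison, with or without replicate 2. CASP4, which senses intracellular lipopolysaccharide and lies 56031 bases from CASP1, was 6.10 to 6.74 log2 CPM over the 9 libraries and did not pass in any comparison. Of the 5 initiator and other caspases, CASP9, which the apoptosome activates, was lower in TalaR-DF than in parental cells by -0.47 ± 0.13 log2 units (adjusted p = 0.043). CASP10, a death receptor caspase, was 0.78 ± 0.15 higher in TalaR-M than in TalaR-DF cells (adjusted p = 0.014). CASP8 was 6.21 to 6.44 log2 CPM in 8 libraries and 4.60 in TalaR-M replicate 2. CASP2 was 5.27 to 5.41 in parental cells and 5.76 to 5.82 in the TalaR libraries other than replicate 2, and passed in both TalaR groups against parental when that library was left out, at 0.43 (adjusted p = 0.00021) and 0.46 (adjusted p = 4.9e-05). CASP6, an effector caspase, was 3.32 to 3.62 in all libraries and did not pass in any comparison, with or without replicate 2.

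In death receptor signalling the ligand TNFSF10 rose in TalaR-M cells, and TNFRSF10A, 1 of its receptors, did not pass with all 9 libraries. TNFSF10 (TRAIL), a ligand that kills many tumour cells and is induced by interferon, lies at chr3:172505508-172523475. Its log2 CPM was 3.92, 3.85 and 3.79 in parental cells, 5.13, 5.04 and 4.93 in TalaR-M cells, and 4.08, 4.13 and 3.94 in TalaR-DF cells. The TalaR-M libraries were above the other 6, and replicate 2 was in their middle. The log2 fold change was 1.18 ± 0.13 against parental cells (adjusted p = 0.00040), a 2.26-fold rise, and 1.17 without replicate 2. Against TalaR-DF it was 0.98 ± 0.13 (adjusted p = 0.0024), just under 2-fold, and it passed 2-fold without TalaR-M replicate 3 (1.03) or without TalaR-DF replicate 2 (1.02). TalaR-DF against parental gave 0.20 ± 0.13 (adjusted p = 0.40).

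TNFRSF10A (DR4), a TRAIL receptor, was 4.50 to 4.66 log2 CPM in parental, 4.21, 2.86 and 4.17 in TalaR-M and 4.56 to 4.79 in TalaR-DF cells. TalaR-M against parental gave -0.83 ± 0.34 (adjusted p = 0.11), and -0.38 ± 0.10 without replicate 2 (adjusted p = 0.0059). TNFRSF10D, a decoy receptor for TRAIL from the list of 40 further pathway genes, fell by 1.94 on the log2 scale in TalaR-M against parental cells (adjusted p = 0.00080). Its log2 CPM was 6.26 to 6.37 in parental cells, and 4.61, 3.77 and 4.72 in TalaR-M cells with replicate 2 lowest. CFLAR (c-FLIP), the inhibitor of caspase-8 activation, was 6.22 to 6.29 in parental cells and 5.50 to 5.87 in all 6 TalaR libraries. It fell by less than 2-fold in TalaR-M cells, by -0.59 ± 0.13 (adjusted p = 0.012), and gave -0.42 ± 0.13 in TalaR-DF cells (adjusted p = 0.057), or adjusted p = 0.00012 without TalaR-M replicate 2. TNFRSF1A, the main TNF receptor, was 7.17 to 7.36 in parental and TalaR-M cells and 6.78 to 6.96 in TalaR-DF cells (-0.39 ± 0.12 against parental, adjusted p = 0.052). The adaptors FADD and TRADD did not pass in any comparison with all 9 libraries.

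In the necroptosis pathway the gene for RIPK3, the kinase that activates MLKL, was at 0 in all 9 libraries. MLKL, which breaches the cell membrane, was 5.32 to 5.40 log2 CPM in parental, 5.59 to 5.69 in TalaR-M and 5.71 to 5.96 in TalaR-DF cells. The groups did not overlap, and MLKL rose by 0.52 ± 0.12 in TalaR-DF against parental cells (adjusted p = 0.019), under 2-fold. RIPK1 was 3.60 in TalaR-M replicate 2 and 4.11 to 4.63 elsewhere.

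Among mitochondrial factors, CYCS rose by less than 2-fold in both TalaR groups, by 0.56 ± 0.16 in TalaR-M (adjusted p = 0.039) and 0.71 ± 0.16 in TalaR-DF cells (adjusted p = 0.017) against parental. Processed pseudogenes of CYCS can share its reads. APAF1 was 4.67 to 4.76 in parental, 3.88 to 4.10 in TalaR-DF, and 4.28 and 4.00 in TalaR-M replicates 1 and 3. With replicate 2 its SE was 0.98 and no comparison passed. Without it, APAF1 gave -0.58 in TalaR-M (adjusted p = 0.00081) and -0.73 in TalaR-DF cells (adjusted p = 6.0e-05) against parental. HTRA2, a mitochondrial protease, was 4.40 to 4.94, and DIABLO (SMAC), an IAP antagonist, was 0 to 1.59. Neither passed with all 9 libraries, and DIABLO counts are uncertain because other annotated genes overlap it on the same strand.

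**Figure D4:**
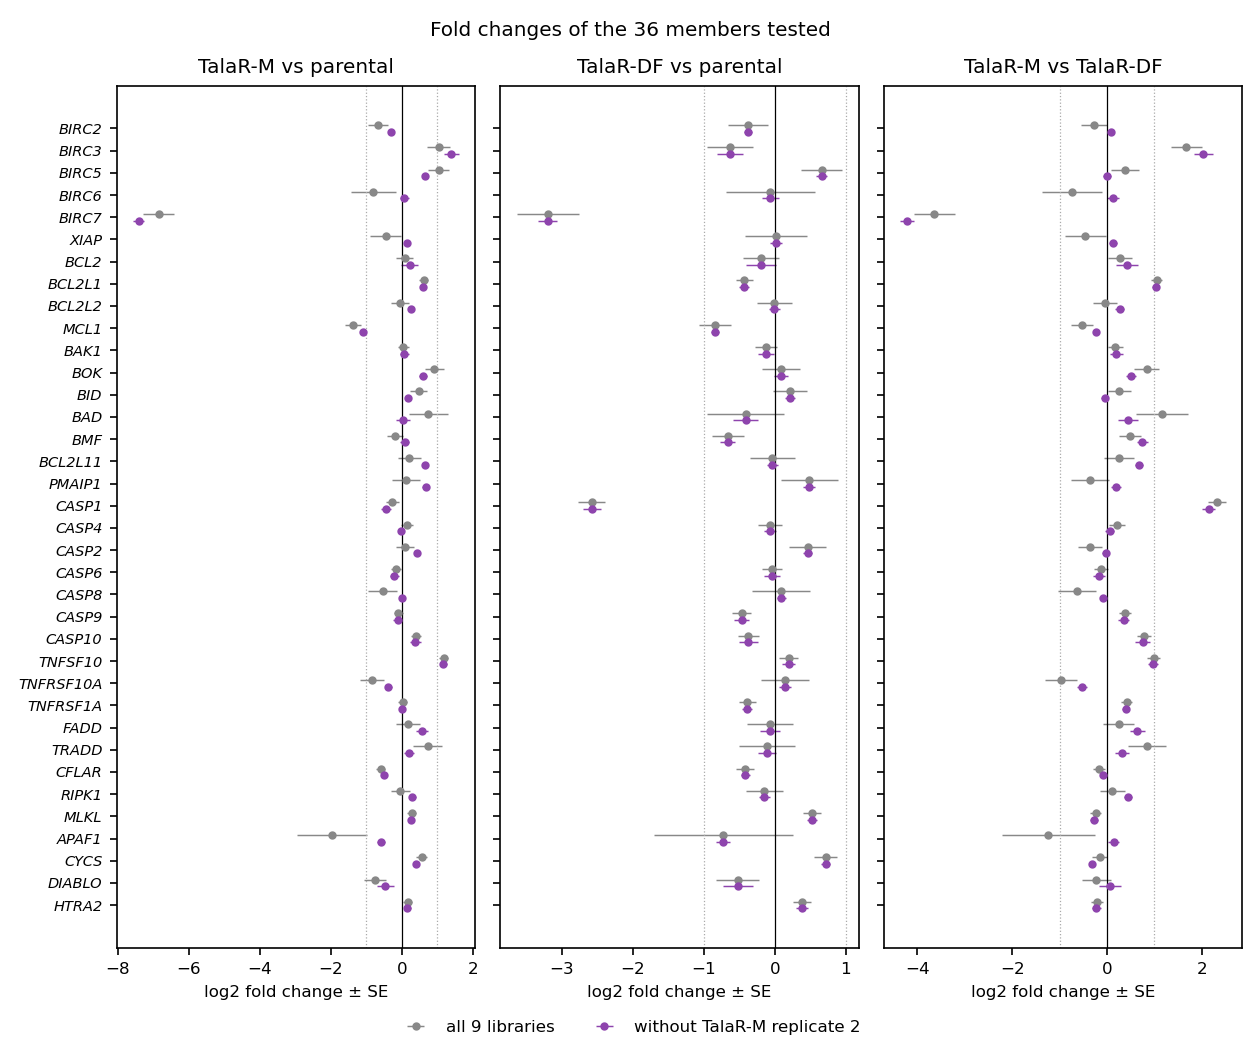
Log2 fold changes with SE for the 36 tested members in each comparison, with all 9 libraries in grey and without TalaR-M replicate 2 in purple; horizontal scales differ between panels and dotted lines mark 2-fold. The SE is smaller without that library in most rows, and BIRC7 and CASP1 lie farthest from 0 in TalaR-DF against parental cells at -3.20 and -2.58.

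Of 40 further apoptosis and pyroptosis genes, 29 were tested with all 9 libraries (limma). In TalaR-M against parental cells 2 were called lower and 0 higher, beside 7.72% and 5.53% of all genes. At an unadjusted p under 0.05, 10 were lower and 4 higher. In TalaR-DF against parental cells 4 were called lower and 0 higher, beside 7.49% and 2.25% of all genes. At an unadjusted p under 0.05, 8 were lower and 5 higher. In TalaR-M against TalaR-DF cells 2 were called higher and 0 lower, beside 5.29% and 1.64% of all genes. At an unadjusted p under 0.05, 4 were higher and 6 lower. Their median log2 fold changes were -0.05, -0.09 and 0.00 in turn, beside -0.09, 0.01 and -0.09 for all genes. The share of all genes at an unadjusted p under 0.05 was computed for TalaR-DF against parental cells only (12.7% higher and 16.7% lower). The unadjusted counts of the other comparisons, here and for the lists below, therefore have no such share beside them. At adjusted p under 0.05, 0 were higher and 6 lower in TalaR-M against parental cells, where 23.6% of all genes passed in either direction. CASP14, a caspase of keratinocyte differentiation, was 3.26, 3.13 and 2.95 log2 CPM in parental cells and at 0 in all 6 TalaR libraries, which makes it at least 3.11 log2 units lower in both. It passed the filter through parental cells alone, so it could only be called lower, and it is 1 of the lower calls in both counts. BBC3 (PUMA), a BH3-only gene outside the 40 members that was singled out after its values were seen, gave -0.93 ± 0.25 in TalaR-M against parental cells (adjusted p = 0.029) and passed 2-fold at -1.18 without replicate 2 (adjusted p = 6.1e-05). Of the others called lower in TalaR-DF cells, 2 act in pyroptosis, as CASP1 does. NLRP1, an inflammasome sensor, gave -1.94 ± 0.23 (adjusted p = 0.00062), and GSDME (listed as DFNA5), a gasdermin that caspase-3 cleaves, gave -1.89 ± 0.24 (adjusted p = 0.00087). Both were higher in TalaR-M than in TalaR-DF cells, by 1.34 and 1.03. TRAF1, a partner of the cIAPs, gave -1.02 ± 0.29 in TalaR-DF against parental cells (adjusted p = 0.046).

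The NF-kB genes called were lower in each TalaR group than in parental cells, and higher in TalaR-M than in TalaR-DF cells. Of 15 tested NF-kB feedback and target genes, 0 were called higher and 3 lower in TalaR-M against parental cells, beside 5.53% and 7.72% of all genes. At an unadjusted p under 0.05 there were 1 and 6 (limma). Their median was -0.32, beside -0.09 for all genes. ICAM1, an adhesion molecule, gave -2.24, NFKBIZ -2.54, and CXCL1 was at 0 in all 6 TalaR libraries. CXCL1 passed the filter through parental cells alone, so it could only be called lower, and it is 1 of these 3 lower calls. Replicate 2 lowered the values of ICAM1 and NFKBIZ, with ICAM1 at 3.95 log2 CPM against 5.89 and 5.71 in the other TalaR-M libraries. NFKBIZ was 0.95 against 2.71 and 2.85. Without replicate 2, 3 of the 15 were again called lower, beside 7.07% of all genes. Against TalaR-DF, 3 were called higher and 0 lower in TalaR-M, beside 5.29% and 1.64% of all genes. They were CXCL8 at 1.19, RELB at 1.16, which lost its call without replicate 2 (0.87), and IL6. CXCL8 was at 0 in TalaR-DF replicates 2 and 3, so its value is limited by the 1 CPM floor. IL6 was at 0 in all TalaR-DF libraries, so at least 1.16 log2 units higher in TalaR-M, and entered the test through TalaR-M, where it was high. At an unadjusted p under 0.05, 5 of the 15 were higher and 4 lower in TalaR-M against TalaR-DF, with a median of 0.18, or 0.00 without replicate 2. In TalaR-DF against parental, 0 were called higher and 3 lower, among them NFKB2 at -1.16, beside 2.25% and 7.49% of all genes. At an unadjusted p under 0.05 there were 1 and 7 (limma), and the median was -0.38 beside 0.01. Without TalaR-M replicate 2 the number called lower was 5, with no share of all genes given for that fit.

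Interferon genes were higher in TalaR-M than in TalaR-DF cells, as TNFSF10 and CASP1 were. Of 12 tested, 4 were called higher and 0 lower in that comparison (limma), beside 5.29% and 1.64% of all genes. At an unadjusted p under 0.05 there were 9 and 0. Without replicate 2, 5 were called higher, beside 6.96% of all genes. The median with all 9 libraries was 1.00, beside -0.09 for all genes. MX1, an antiviral GTPase, gave 1.94 ± 0.18 (adjusted p = 0.00036), IRF7 1.68, OAS1 1.64 and GBP2 1.28. IRF7 was at 0 in TalaR-DF replicates 1 and 3, so its differences from TalaR-DF cells are limited by the 1 CPM floor. In TalaR-M against parental, MX1 at 1.71 and IFIT1 at 1.06 were called higher and GBP2 at -1.32 lower. Of all genes, 5.53% were called higher and 7.72% lower there. In TalaR-DF against parental, 4 of the 12 were called lower, beside 7.49% of all genes. They were GBP2 at -2.60, IRF7 at -1.82, OAS1 at -1.43 and STAT2 at -1.03. The summed CPM of the 12 genes was 366 to 374 in parental, 426 to 491 in TalaR-M and 327 to 333 in TalaR-DF libraries, and their part in the values of TNFSF10 and CASP1 was not tested.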

How the data were processed

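The authors made stranded poly(A) libraries from the RNA of all 3 groups of PSN1 cells. The deposited values were log2 CPM holding a prior count, with values under 0 set to 0, as read from the values themselves. The aligner, counting and annotation are not given in the sources used here, and the submitters' processing notes name hg38. The other 39 samples of the series were not analysed here. Deposited columns named maintain hold TalaR-M cells and those named withdraw hold TalaR-DF cells, by the sample titles.

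Genes above 0 in at least 3 libraries were fitted with limma 3.58.1 in R 4.3.3 (lmFit, eBayes with trend, 3 groups, 9 libraries), adjusted over 12471 genes. No pseudocount was added. An exact permutation test of 3 against 3 libraries cannot go under 0.1 and was not used. Whole reads were recovered from the values, and all values under 50 CPM came within 0.1 of a whole number. These reads were used for depth and for the read counts given with BIRC7, BIRC3 and CASP1, and not in the fits. Intervals of counting error were not computed. Positions and lengths came from GENCODE 44, and 93.7% of tested genes had a length and GC content. RefSeq promoters matched 31 of 40 members. MCL1, BIRC5, CASP10, CASP1, BIK, RIPK3, TRADD, TNFRSF10A and BCL2L2 had no entry. Figures were drawn with matplotlib 3.10.9.

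A member was described in full if called in any comparison with all 9 libraries or without TalaR-M replicate 2, which gave 7. Genes of other lists were named only where called, at most 6 a list. The members, lists and tests were chosen with earlier results of these data known. Alternatives were added pseudocounts, other filters and thresholds, median-ratio scaling, no trend, array weights, a replicate block, removal of a length and GC trend, 2 groups only, and leaving out each library. Protein motifs were not analysed here.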

Additional observations from a re-analysis of the deposited data

How the results depend on the processing

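Of 396 refitted fold changes of the 7 members described in full, 370 stayed on their side of the threshold, 18 lost a call, 8 gained one and 0 reversed. With all 9 libraries 4 members were called in TalaR-M and 2 in TalaR-DF cells against parental cells, and 4 between the TalaR groups. An added pseudocount of 8 CPM left 2 in the first and 2 in the last comparison. With no fold threshold 8 and 7 of 36 were called in the first 2 comparisons, where 23.6% and 18.6% of all genes were, and with a 1.5-fold threshold 7 and 4. Leaving out 1 library at a time gave 3 to 5, 2 to 2 and 3 to 5. The share of all genes was not computed for the pseudocount, the 1.5-fold threshold or libraries other than TalaR-M replicate 2 left out. Those counts therefore have no background beside them. BIRC5 in TalaR-M against parental, called at adjusted p = 0.035, also missed with median-ratio scaling (0.051), the 2 groups alone (0.11), array weights (0.64 log2 units) and the pseudocount of 8 CPM (0.98). BIRC3 in that comparison was called with median-ratio scaling (1.16), array weights (1.40) and the length and GC trend removed (1.54), and its call against TalaR-DF was lost with the 2 groups alone (adjusted p = 0.078) and the pseudocount of 8 CPM (0.57 log2 units). TNFSF10 against parental (0.86) and BCL2L1 against TalaR-DF (0.94) also fell under 2-fold with that pseudocount, and TNFSF10 against TalaR-DF passed 2-fold with median-ratio scaling (1.16) and the trend removed (1.18). Median-ratio scaling moved the median of all genes by 0.11 in TalaR-M against parental and by 0.14 in TalaR-M against TalaR-DF. The values of BIRC3 and TNFSF10 under that scaling include these shifts. With the minimum of 5 CPM, BIRC3 was not tested. For other lost or gained calls the cause was not tested.

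Replicate numbers were not taken as pairs. Deviations from the group means correlated at -0.47 to 0.24 between same-numbered libraries over 9519 genes, and at -0.52 to 0.51 between differently numbered ones. Because TalaR-M replicate 2 stands apart and shapes the deviations of its group, these values cannot settle whether samples were paired. A replicate block left 3, 2 and 4 members called, with BIRC5 lost (adjusted p = 0.056), and the share of all genes was not computed for it. Depth limits values near 1 CPM, where 1 CPM is 7.54 reads in TalaR-M replicate 2 and 12.7 to 15.7 in the other libraries.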

Other observations

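Genes within 100000 bases of the 7 members described in full were listed after the values of the members were seen. Beside BIRC7, 3 of 4 neighbours were tested. NKAIN4, named for its interaction with the sodium pump, which lies 289 bases from BIRC7, was at 0 in all 3 TalaR-M libraries and had a mean of 5.18 log2 CPM in parental and 1.97 in TalaR-DF cells. It fell by 3.20 on the log2 scale in TalaR-DF against parental cells (limma, adjusted p = 0.00018), and was at least 5.18 log2 units lower in TalaR-M than in parental cells. YTHDF1, at 19744 bases, and ARFGAP1, at 32290 bases, gave -0.28 and 0.17 in TalaR-M against parental cells, with adjusted p of 0.12 and 0.69.

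Beside CASP1, CARD16 gave -1.38 in TalaR-DF against parental cells (adjusted p = 0.11, and 3.9e-06 without TalaR-M replicate 2) and 2.19 in TalaR-M against TalaR-DF (adjusted p = 0.029). Within the same window of BIRC5, 5 neighbours were tested in TalaR-M against parental cells. TMC6 and TMC8 gave -1.56 and -1.83, with adjusted p of 0.0018 and 0.00027. TK1, at 26953 bases, gave 1.04 (adjusted p = 0.050, and 0.64 with adjusted p = 0.0015 without replicate 2). AFMID and SYNGR2 gave 0.51 and 0.23, with adjusted p of 0.077 and 0.43.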
